A study of Rattus norvegicus with 12 samples.

Results

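The genes described here move chloride and bicarbonate across the colonic epithelium or supply the bicarbonate and protons that are moved. They were Slc26a3, Slc9a3, Slc9a2, Slc4a7, Slc12a2, Cftr, Best2, Car1, Car2 and Car4. Their probes were found by the gene name printed in the scanner files, where Car2 is spelled Ca2. All 10 genes were on the array and all 10 passed the filter on dim probes, among 10451 genes tested. The samples were total RNA from tissue labelled as colonic epithelium of male Wistar rats of 180 to 200 g. One group of 6 ate a high-protein diet and the other group of 6 a normal-protein diet, each for 6 weeks, and no allele or drug was involved. Each sample was hybridised to its own one-colour array, a glass slide area with many DNA probes whose brightness follows the amount of matching RNA. Nothing in the labels says that replicates were separate animals, or which stretch of colon each came from, so p-values measure the spread between these samples.

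The colon takes up sodium chloride through apical exchangers that work in pairs, Slc26a3 trading luminal chloride for bicarbonate while Slc9a2 and Slc9a3 trade luminal sodium for protons. Carbonic anhydrases make the bicarbonate and protons from carbon dioxide and water. Secretion runs the other way: Slc12a2 loads chloride and Slc4a7 loads bicarbonate across the basolateral membrane, and apical channels such as Cftr let the anions out. Best2 is a bestrophin anion channel that in mouse colon is known from goblet cells. Hoxb13 is a homeobox gene whose expression marks the distal colon, and Hoxb6 belongs to a more anterior part of the same gene cluster.

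Levels below are log2 intensities after background correction and normalization of the 12 arrays together, and a difference is high protein minus normal protein unless another is named. On this scale a step of 1 is a doubling, and the offset of 50 added to every background-corrected signal makes the folds of dim genes too small. A probe's brightness also depends on its sequence, so levels are compared between arrays and not between genes. The share of gene spots that the scanner software flagged good ran from 48.45% to 55.86% in high-protein arrays and from 42.67% to 54.14% in normal-protein arrays. The lowest share was in normal protein replicate 3, which was also the dimmest array. The 75th percentile of its gene spot signals was 130, against 223 to 385 in the other arrays. The number of arrays limits the precision. There were 3 slides of 4 arrays, each with 2 arrays of either diet. Slide 1 held high protein replicates 1 and 2 with normal protein replicates 1 and 3, and slide 2 held high protein replicates 3 and 5 with normal protein replicates 2 and 4. Slide 3 held high protein replicates 4 and 6 with normal protein replicates 5 and 6. The mean of 10 epithelial markers lay between 11.90 and 12.68 in high-protein arrays and between 11.98 and 12.71 in normal-protein arrays. Other cells were present as well: 9 smooth muscle markers averaged 10.63 to 11.63 in high-protein and 11.27 to 11.78 in normal-protein arrays. The 4 tested red blood cell markers averaged 10.59 to 11.55 in high-protein and 9.39 to 12.13 in normal-protein arrays, and none of 8 markers of gastric parietal cells and pancreas passed the filter on dim probes. In such bulk RNA, fewer cells of a type and less RNA per cell cannot be told apart.

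The 10 genes had 13 probes. Slc12a2 and Car2 were read from probes printed in 10 spots each, and the other 8 genes from probes with 1 spot. The probe used was flagged good on all 12 arrays for 8 genes, on 11 for Slc26a3 and on 9 for Slc9a3. For Slc26a3 the array not flagged good was normal protein replicate 3, at 10.31. A second probe of Cftr and one of Slc9a3 were flagged good on 0 arrays, and a second probe of Slc12a2 on 7. No spot of any member was saturated.

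The first question was whether dietary protein changed these genes. None of the 10 differed between the diets after adjustment over all genes (limma), and the groups overlapped for every one of them. The background was the same: 0.00% of the 10451 genes passed, and the lowest adjusted p was 0.68. Without adjustment, 1 of the 10, Slc4a7, had a p under 0.05, beside 6.64% of all genes. The median size of the difference, whatever its sign, was 0.33 over the 10 genes and 0.10 over all genes tested. All of the 10 also varied more over the arrays than most genes. Their SD over all arrays exceeded that of 83.1% of genes for Slc12a2, the least variable, and of 99.7% for Car1.

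**Figure D1:**
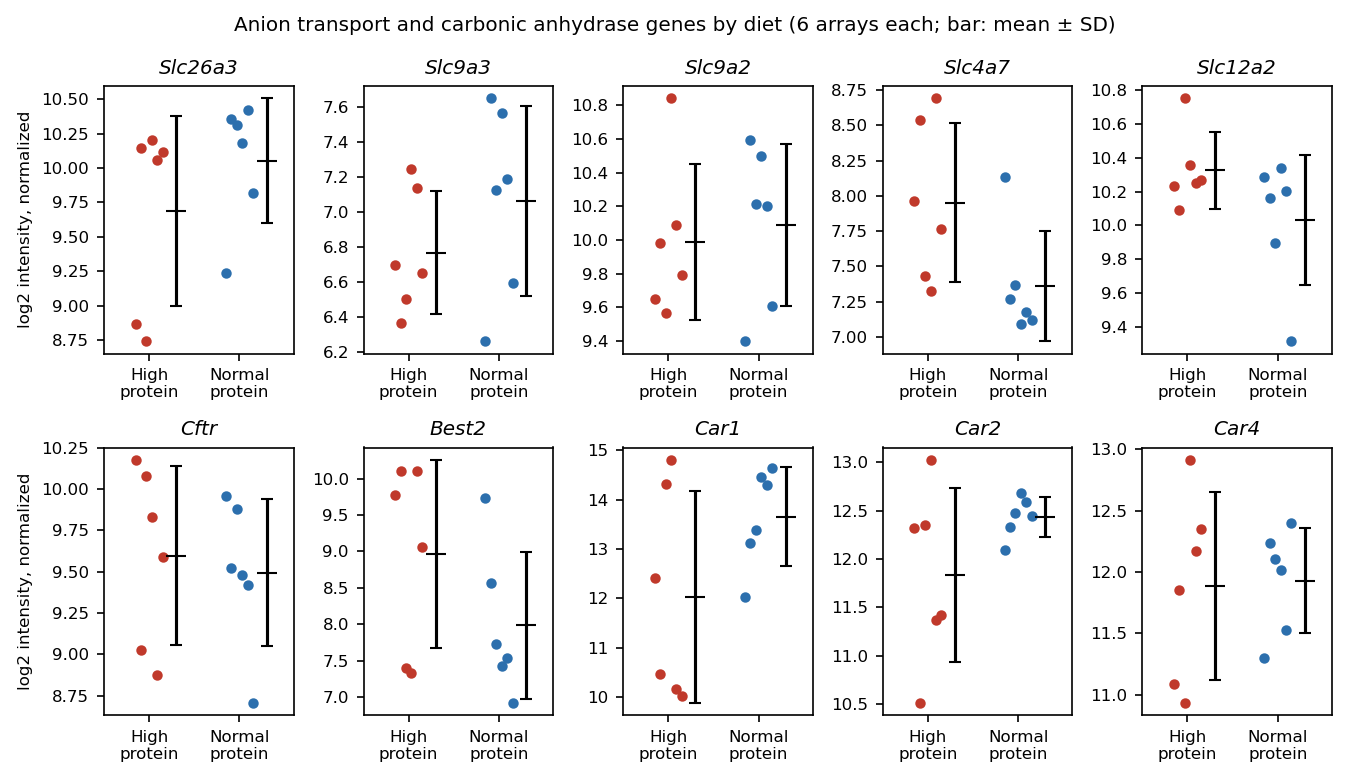
Normalized log2 intensity of the 10 genes in every array, high protein in red and normal protein in blue, with the mean ± SD of 6 arrays beside the points. The vertical axis has its own range in each panel; the diets overlap in all 10 panels, and Car1 and Best2 spread over the widest ranges, 4.78 and 3.19.

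Among the exchangers of sodium chloride uptake, Slc26a3, the chloride/bicarbonate exchanger, ran from 8.74 through a median of 10.09 to 10.20 in high-protein arrays, against 9.24 through 10.25 to 10.42 in normal-protein arrays. High protein replicates 1 and 3, at 8.87 and 8.74, and normal protein replicate 1, at 9.24, lay apart from the other 9 arrays, which started at 9.82. The mean difference was -0.37 ± 0.30 (SE; limma adjusted p = 0.80). Within the slides it was -0.27, -0.87 and 0.04.

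Slc9a3, the sodium/proton exchanger NHE3, was dim. It ran from 6.37 through 6.68 to 7.25 on high protein and from 6.26 through 7.16 to 7.65 on normal protein, a difference of -0.30 ± 0.24 (SE; limma adjusted p = 0.80). Its 3 arrays that were not flagged good, high protein replicate 2 and normal protein replicates 1 and 6, were among its 4 lowest. Slc9a2, the exchanger NHE2, ran from 9.57 through 9.88 to 10.84 on high protein and from 9.40 through 10.21 to 10.59 on normal protein. Its difference was -0.10 ± 0.24 (SE; limma adjusted p = 0.93), and within the slides it was 0.01, -0.72 and 0.41.

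Of the basolateral carriers, Slc4a7, the sodium bicarbonate cotransporter NBCn1, ran from 7.33 through 7.87 to 8.69 on high protein and from 7.09 through 7.22 to 8.13 on normal protein. On high protein 5 of 6 arrays lay above the normal-protein mean, and on normal protein replicate 1 alone reached 8. The difference was 0.59 ± 0.25 (SE), a ratio of 1.51, with an unadjusted p of 0.0349 and an adjusted p of 0.73 (limma). It had the same sign on each slide, at 0.50, 0.88 and 0.39. Slc12a2, the sodium-potassium-chloride cotransporter NKCC1, ran from 10.09 through 10.26 to 10.75 on high protein and from 9.31 through 10.18 to 10.34 on normal protein. All 6 high-protein arrays lay above the normal-protein mean, which normal protein replicate 6 pulled down as the lowest array. The difference was 0.29 ± 0.17 (SE; limma adjusted p = 0.73), and 0.15 without that array.

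The apical channels were variable within both diets. Cftr, the chloride and bicarbonate channel that is defective in cystic fibrosis, ran from 8.88 through 9.71 to 10.18 on high protein and from 8.71 through 9.50 to 9.96 on normal protein. Its difference was 0.10 ± 0.26 (SE; limma adjusted p = 0.93), with -0.32, -0.02 and 0.64 within the slides. Best2 ran from 7.33 through 9.42 to 10.11 on high protein and from 6.92 through 7.63 to 9.73 on normal protein. On high protein 4 arrays lay above 9, and on normal protein replicate 1 alone did. The Best2 difference was 0.98 ± 0.59 (SE; limma adjusted p = 0.74), with 1.21, 0.76 and 0.97 within the slides.

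Car1, a cytosolic carbonic anhydrase of colonocytes and red blood cells, had the widest spread of the 10 genes. It ran from 10.03 through 11.44 to 14.81 on high protein and from 12.03 through 13.84 to 14.65 on normal protein. High protein replicates 2, 5 and 6 lay at 10.46, 10.16 and 10.03, and no normal-protein array was below 12. The brightest array differed from the dimmest 27.4-fold, and 28 of the 10451 genes had a larger SD over the 12 arrays. The diet difference was -1.62 ± 0.85 (SE), a ratio of 0.324 (limma adjusted p = 0.73), with -1.26, -1.56 and -2.05 within the slides.

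Car2, the fast cytosolic enzyme, ran from 10.51 through 11.88 to 13.03 on high protein and from 12.10 through 12.46 to 12.68 on normal protein. Its SD was 0.90 over the high-protein and 0.21 over the normal-protein arrays (n = 6 each), and the same 3 high-protein arrays that were low for Car1 were the only ones below 12. The difference was -0.60 ± 0.34 (SE; limma adjusted p = 0.73), with -0.87, -0.65 and -0.29 within the slides. Car4, which is anchored to the apical membrane, ran from 10.93 through 12.02 to 12.92 on high protein and from 11.30 through 12.06 to 12.40 on normal protein. Its difference was -0.04 ± 0.32 (SE; limma adjusted p = 0.98), so its direction is not settled. In the GRCr8 gene table of RefSeq, Car2, Car3, Car1 and Car13 are successive genes, while Car4 lies on another chromosome. Car3 and Car13 did not pass the filter on dim probes.

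The 95% intervals of these differences leave room for sizeable changes. That of Slc12a2, the narrowest, ran from -0.07 to 0.66, and that of Car1, the widest, from -3.47 to 0.22. For Slc26a3 it ran from -1.01 to 0.28, and for Cftr from -0.45 to 0.66.

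**Figure D2:**
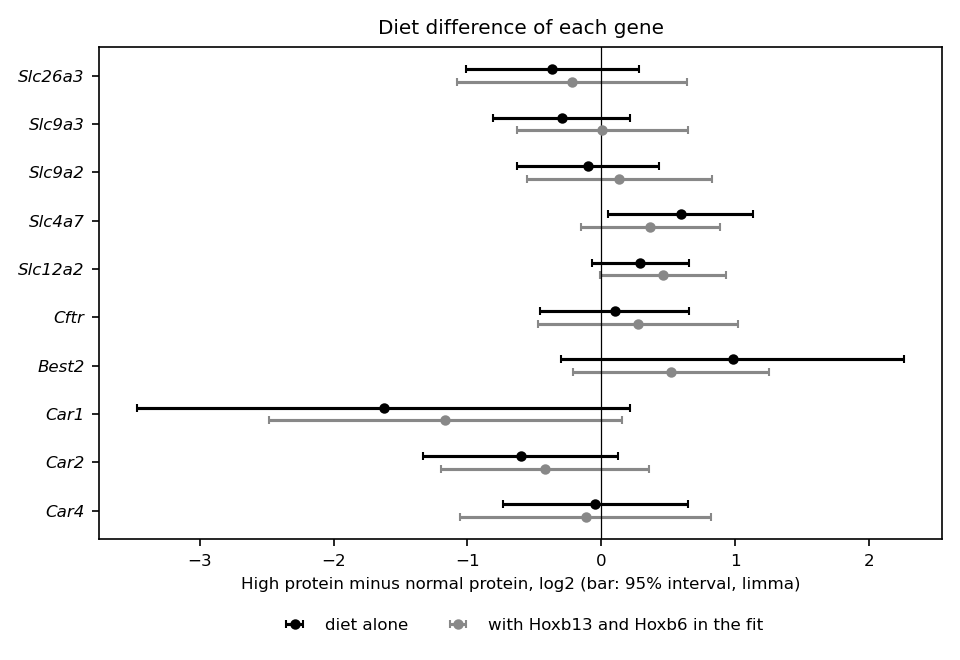
Difference between the diets (high protein minus normal protein, log2) for each gene with its 95% interval, from the fit of diet alone in black and from the fit that also holds Hoxb13 and Hoxb6 in grey. Every interval spans 0 but that of Slc4a7 with diet alone, whose adjusted p is 0.73; with the Hox levels in the fit, the Car1 and Best2 intervals shorten.

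The samples also differed in Hox genes within each diet. Hoxb13 read 6.12, 7.49, 12.03, 12.26, 12.49 and 12.56 in high protein replicates 3, 4, 1, 6, 5 and 2. In normal protein replicates 4, 6, 3, 5, 2 and 1 it read 5.83, 6.18, 8.26, 9.32, 11.996 and 12.05. The 3 lowest of these 12 levels, in high protein replicate 3 and normal protein replicates 4 and 6, were not flagged good and give only a ceiling. Hoxb6 stood at 10.87 and 10.82 in high protein replicates 3 and 4 and at 10.95 in normal protein replicate 6, and between 6.51 and 7.49 in the other 9 arrays. Its lowest levels, 6.51 and 6.71 in normal protein replicates 2 and 3, were not flagged good and give only a ceiling. All 3 arrays with high Hoxb6 had low Hoxb13, while normal protein replicate 4 was low for both. The diets overlapped in both: Hoxb13 averaged 10.49 ± 2.89 on high protein and 8.94 ± 2.72 on normal protein, and Hoxb6 averaged 8.43 ± 1.88 on high protein and 7.58 ± 1.67 on normal protein (SD, n = 6 each). The labels give no position along the colon.

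Each gene was therefore set against the array's Hoxb13 level in a fit with diet as a second term. Across all genes, 2.27% were called higher and 1.69% lower with Hoxb13. Of the 10 members, Best2 rose with Hoxb13 and Car1 fell with it, the Car1 call being lost with slide as a block. The other 8 did not pass, and 6 of them had slopes between -0.03 and 0.03. The median size of the slope, whatever its sign, was 0.03 over the 10 genes and 0.02 over all genes.

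In high-protein arrays ordered from the lowest to the highest Hoxb13 level, Best2 read 7.41, 7.33, 9.77, 9.06, 10.11 and 10.11. In normal-protein arrays in the same order it read 7.43, 6.92, 7.73, 7.54, 8.56 and 9.73. The 6 arrays with Hoxb13 near or above 12, 4 on high protein and 2 on normal protein, held the 6 highest Best2 levels. In the other arrays Best2 stayed between 6.92 and 7.73, so its rise was not even along the Hoxb13 levels, of which the lowest give only a ceiling. The slope over all arrays was 0.38 ± 0.05 (SE; limma adjusted p = 0.00148), which averages to 1.30-fold in Best2 for each doubling of Hoxb13 signal. Fits within a diet were added after the data were seen: they gave 0.42 in high-protein arrays and 0.32 in normal-protein arrays. With slide as a block it was 0.33, with an adjusted p of 0.00524 (limma). The 9 goblet markers other than Best2 averaged 10.65, 11.46, 10.96, 10.44, 11.17 and 11.15 in the high-protein arrays and 11.82, 11.23, 11.68, 11.65, 11.26 and 11.07 in the normal-protein arrays, in the same order. The part of goblet cell content in the Best2 levels was not tested.

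Car1 read 14.31, 14.81, 12.42, 10.03, 10.16 and 10.46 in high-protein arrays from the lowest to the highest Hoxb13 level. On normal protein it read 14.46, 14.65, 13.38, 14.29, 13.13 and 12.03 in that order. It was above 13 in all 6 arrays with Hoxb13 below 10, and also in normal protein replicate 2, where Hoxb13 was 11.996. The slope was -0.50 ± 0.09 (SE; limma adjusted p = 0.00982), an average factor of 0.705 for each doubling of Hoxb13 signal, whose lowest levels give only a ceiling. Within a diet it was -0.67 in high-protein arrays and -0.31 in normal-protein arrays. The call was lost without high protein replicate 3, where the slope was -0.50 with an adjusted p of 0.0585 (limma), and with slide as a block, at an adjusted p of 0.0516 (limma). Red blood cells also hold Car1. Their 4 tested markers averaged 11.55, 10.59, 10.79, 11.00, 10.69 and 10.95 in the high-protein arrays and 10.50, 12.13, 9.39, 10.29, 10.87 and 10.68 in the normal-protein arrays, in the same order of Hoxb13. Their part in the Car1 levels was not tested.

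Slc4a7 and Car2 leaned the same ways as Best2 and Car1 without passing. Slc4a7 lay at 7.43, 7.33, 7.96, 7.77, 8.69 and 8.53 on high protein and at 7.09, 7.12, 7.37, 7.18, 7.27 and 8.13 on normal protein, from the lowest to the highest Hoxb13 level. Its slope was 0.13 ± 0.03 (SE; limma adjusted p = 0.0646). Normal protein replicate 2 was the exception, with high Hoxb13 and low Slc4a7, and without it the adjusted p was 0.0352 (limma). Without each of the other arrays the adjusted p lay between 0.0527 and 0.202, and with slide as a block it was 0.194 (limma). Car2 lay at 12.35, 13.03, 12.33, 11.42, 11.37 and 10.51 on high protein and at 12.68, 12.45, 12.48, 12.59, 12.33 and 12.10 on normal protein in that order. Its slope was -0.15 ± 0.05 (SE; limma adjusted p = 0.17).

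**Figure D3:**
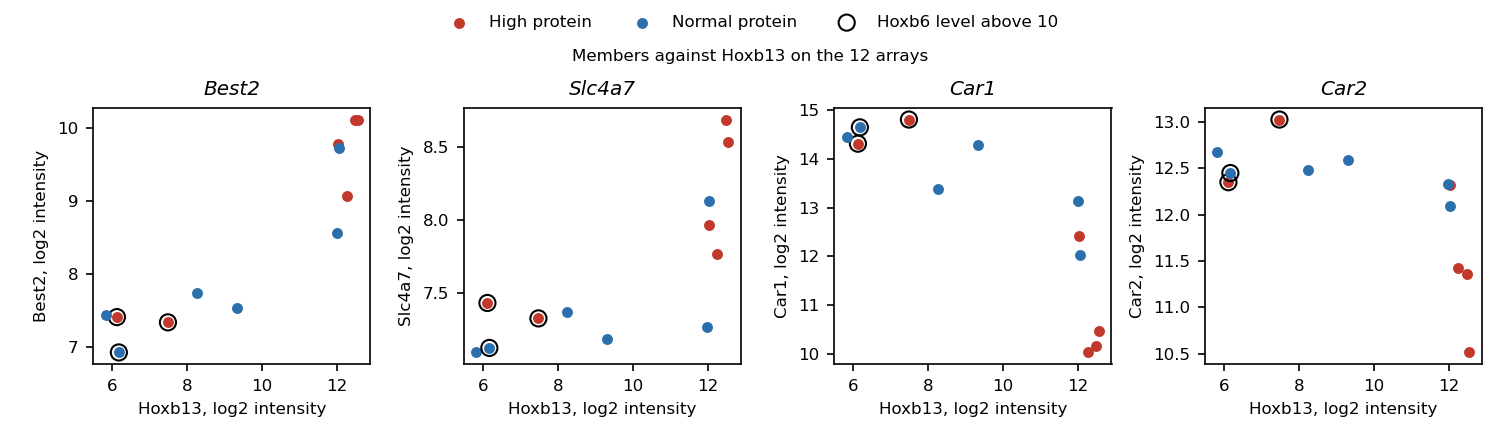
Log2 intensity of Best2, Slc4a7, Car1 and Car2 (vertical) against that of Hoxb13 (horizontal) on the 12 arrays, high protein in red and normal protein in blue; black rings mark the 3 arrays with a Hoxb6 level above 10. The 6 arrays with Hoxb13 near or above 12 hold Best2 levels of 8.56 to 10.11 and the others 6.92 to 7.73, and the 3 lowest Car1 and Car2 points are high-protein arrays among those 6.

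In high-protein arrays alone both slopes passed, with an adjusted p of 0.00984 for Best2 and 0.0245 for Car1 (limma). In normal-protein arrays alone neither did, at 0.323 for Best2 and 0.384 for Car1 (limma). The difference between the diets in these slopes was not tested. Neither passed in the deposited value table with its IDs moved by 1 row, where the slopes were 0.26 for Best2 and -0.29 for Car1 (limma adjusted p = 0.0607 and 0.0953).

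The Hoxb6 slopes of Slc26a3, Slc4a7, Best2, Car1, Car2 and Car4 had the opposite sign to their Hoxb13 slopes. Those of Slc9a3, Slc9a2, Slc12a2 and Cftr had the same sign. Fewer arrays were informative for Hoxb6, since 3 arrays were high. Across all genes 1.95% were called higher and 2.79% lower with Hoxb6, and 0 of the 10 members passed (limma). Of the 10, 2 had an unadjusted p under 0.05, no more than the share of all genes, 21.43% (limma). These 2 members were Car1, with a slope of 0.69 ± 0.18 (SE; limma adjusted p = 0.0548), and Best2, with -0.48 ± 0.13 (SE; limma adjusted p = 0.0529). In the 3 arrays with high Hoxb6, Car1 read 14.31 and 14.81 on high protein and 14.65 on normal protein, and Best2 read 7.41 and 7.33 on high protein and 6.92 on normal protein. Normal protein replicate 4, low for both Hox genes, had a Car1 level of 14.46 and a Best2 level of 7.43, close to those of the 3 arrays. With both Hox genes in the fit, the Hoxb13 slope was 0.34 ± 0.08 for Best2 and -0.41 ± 0.14 for Car1 (SE; limma adjusted p = 0.18 and 0.50). In the same fit, added after the data were seen for Hoxb6, the Hoxb6 slope was -0.08 ± 0.12 for Best2 and 0.20 ± 0.22 for Car1 (SE; limma adjusted p = 0.872 and 0.805). All 3 arrays with high Hoxb6 had low Hoxb13.

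**Figure D4:**
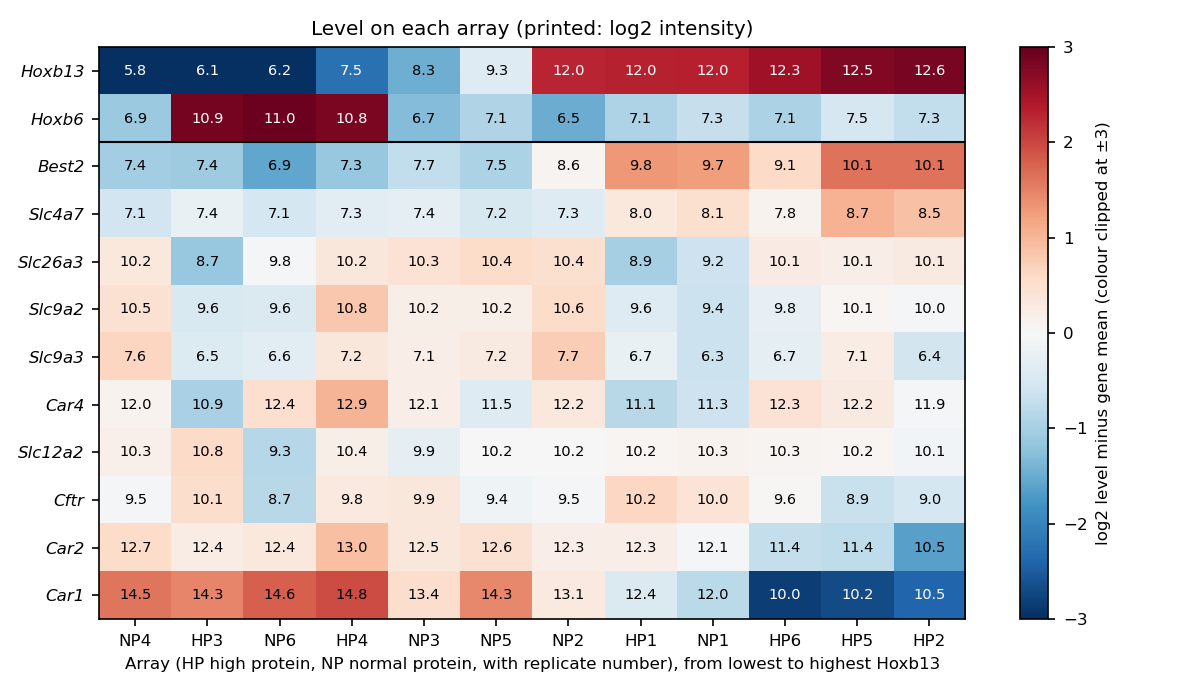
Level of Hoxb13, Hoxb6 and the 10 genes (rows) on each array (columns, HP for high protein and NP for normal protein, from the lowest to the highest Hoxb13), printed as log2 intensity and coloured by the difference from the gene's mean, clipped at 3. Best2 and Slc4a7 redden and Car1 and Car2 turn blue toward the right, while the 6 rows between Slc4a7 and Car2 show no such order.

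With both Hox levels held in the fit, the diet differences of 6 genes were nearer 0 than with diet alone. The Car1 difference was -1.17 ± 0.60 (SE) and the Best2 difference 0.52 ± 0.33 (SE), and those of Slc4a7 and Car2 were 0.37 and -0.42. Those of Slc26a3 and Slc9a3 were -0.22 and 0.0086. That of Slc12a2 was 0.46 ± 0.21 (SE), but it lay anywhere between 0.03 and 0.70 when each array was left out in turn. None of the 10 passed in this fit and 0.00% of all genes did (limma). The members with an unadjusted p under 0.05 numbered 0, and the genes of the whole array 691.

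The promoters of Best2, which rose with Hoxb13, and Slc26a3, which did not pass, are shown for their sequence alone, since no binding of any factor was measured. The RefSeq promoter table for GRCr8, which covers 300 bases around a gene's start, matched 7 of the 10 genes, all but Car1, Car2 and Slc4a7. Best2 lies at chr19:40046941-40047240 and Slc26a3 at chr6:53751165-53751464, both on the plus strand, and capitals mark TTTAT or its reverse complement ATAAA, a core shared by posterior Hox and caudal-type sites.
Best2: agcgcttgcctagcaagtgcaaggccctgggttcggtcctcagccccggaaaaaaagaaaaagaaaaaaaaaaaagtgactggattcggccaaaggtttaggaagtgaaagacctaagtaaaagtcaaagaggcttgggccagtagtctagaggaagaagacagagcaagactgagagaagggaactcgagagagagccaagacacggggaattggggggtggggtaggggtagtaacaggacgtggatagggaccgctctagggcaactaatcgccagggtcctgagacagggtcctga
Slc26a3: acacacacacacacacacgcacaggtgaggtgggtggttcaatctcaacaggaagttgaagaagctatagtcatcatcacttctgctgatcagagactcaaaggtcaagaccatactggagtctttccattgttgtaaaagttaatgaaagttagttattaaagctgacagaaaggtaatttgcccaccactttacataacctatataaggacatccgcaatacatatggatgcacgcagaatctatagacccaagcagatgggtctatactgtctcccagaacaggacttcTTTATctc
The core was in 3 of the 7 genes, Cftr, Slc26a3 and Car4, and in 42.5% of all 33469 promoters of that length, so its presence is common. It was not in the Best2 window.

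Across the 12 arrays some of the members varied together. For 8 genes, leaving out Best2 and Car1 whose arrays fall into separate clusters, 28 pairs were computed with a permutation test of 100000 resamples. Slc26a3 and Car2 were kept, though some of their arrays also lay below the rest. Slc9a2 and Slc9a3 were the closest pair (Pearson r = 0.866, p = 0.00058, adjusted 0.0162; Spearman rho = 0.881, p = 0.00053, adjusted 0.0126). The coefficient was 0.819 without the 2 arrays farthest from the median of Slc9a3, 0.747 within high protein and 0.995 within normal protein. Slc9a3 was dim: its probe was flagged good on 5 high-protein and 4 normal-protein arrays, and the remaining arrays were among its 4 lowest. Of the other 10450 genes, 0.0478% correlated at least as strongly with Slc9a2. Slc26a3 went with Slc9a2 as well (r = 0.729, permutation p = 0.00662, adjusted 0.0463; rho = 0.839, p = 0.00101, adjusted 0.0126). That coefficient was 0.746 without the 2 arrays farthest from the median of Slc26a3, and 0.919% of genes correlated as strongly with Slc9a2. Slc26a3 and Slc9a2 were each among their 4 lowest levels in high protein replicates 1 and 3 and in normal protein replicate 1.

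Slc4a7 and Car2 ran opposite to each other (r = -0.812, permutation p = 0.00242, adjusted 0.0339; rho = -0.832, p = 0.00135, adjusted 0.0126). The coefficient was -0.576 without the 2 arrays farthest from the median of Slc4a7, so it was weaker without them. Over all genes, 0.258% correlated with Slc4a7 as strongly and in the same direction as Car2. Their Hoxb13 slopes were opposite too, 0.13 for Slc4a7 and -0.15 for Car2. The permutation test took no account of Hox level, diet or slide, and the part of Hoxb13 in this pair was not tested. Slc26a3 and Car4 had r = 0.743 (permutation p = 0.00556, adjusted 0.0463) but rho = 0.413 (p = 0.185, adjusted 0.358). Their r was 0.37 without the 2 arrays farthest from the median of Slc26a3. Leaving out a gene's extremes narrows its range, so these drops do not show that a relation rests on those arrays. A slide holds 4 arrays, too few for a coefficient within it. All pairs share the arrays' RNA quality and cell mix.

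**Figure D5:**
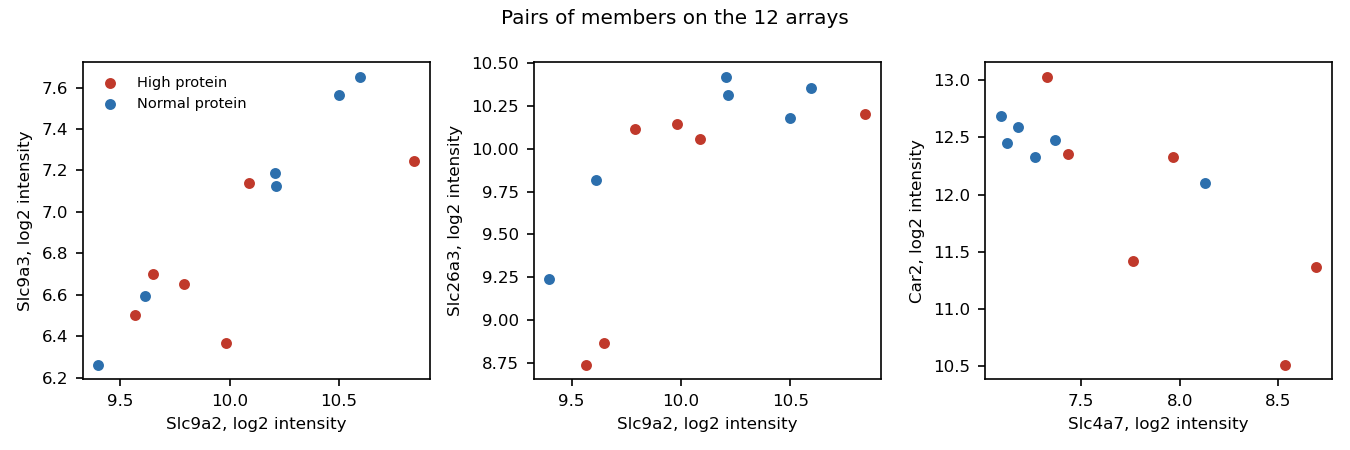
Log2 intensity of Slc9a3 and Slc26a3 against Slc9a2, and of Car2 against Slc4a7, one point per array, high protein in red and normal protein in blue. Slc9a3 tends to be higher where Slc9a2 is higher over its range of 9.40 to 10.84. The lower Slc26a3 points, 8.74 to 9.82, lie at Slc9a2 levels of 9.40 to 9.65. From a Slc9a2 level of 9.79 upward, Slc26a3 stays between 10.06 and 10.42. The 3 lowest Car2 points lie at Slc4a7 levels of 8.53, 8.69 and 7.77.

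Other genes of the same pathways were taken from lists of exchangers, cotransporters, channels, carbonic anhydrases and the pumps and signals that drive secretion. Of these, 51 that are not among the 10 passed the filter on dim probes. None differed between diets after adjustment (limma), and 2 had an unadjusted p under 0.05, a smaller share than the 6.64% of all genes. Lpar2, a lysophosphatidic acid receptor that in mouse restrains Cftr, averaged 7.39 ± 0.11 on high protein and 7.03 ± 0.23 on normal protein (SD, n = 6 each; limma adjusted p = 0.68). Chp2, a cofactor of sodium/proton exchangers, averaged 7.62 ± 0.34 on high protein and 8.07 ± 0.28 on normal protein (SD, n = 6 each; limma adjusted p = 0.70). All 7 tested carbonic anhydrases, 3 of them among the 10 genes, had diet differences below 0, as did 48.52% of all genes, and the list median was -0.08 beside 0.01 for all genes. Most marker lists leaned below 0 as well: 9 of 10 absorptive colonocyte markers (median -0.38) and 8 of 10 goblet markers (-0.40). So did 8 of 10 epithelial (-0.085), 9 of 9 smooth muscle (-0.15) and 6 of 7 immune markers (-0.10). The absorptive colonocyte list includes Slc26a3, Car1 and Car4, and the goblet list Best2. All 4 red blood cell markers lay above 0, with a median of 0.30. Of 14 tested genes for the drive and signals of secretion, 11 lay above 0, with a median of 0.08.

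With Hoxb13, 2 of the 51 rose, 1 fell and 48 did not pass, beside 2.27% of all genes higher and 1.69% lower. Atp12a, the colonic proton-potassium pump, ran over the 12 arrays from 5.83 to 12.78 and had a slope of 0.87 ± 0.08 (SE; limma adjusted p = 0.000182). Ano1, a calcium-activated chloride channel, ran from 9.11 to 11.43 and had a slope of 0.22 ± 0.04 (SE; limma adjusted p = 0.00936). Car8, a member of the carbonic anhydrase family that lacks the enzyme activity, ran from 6.75 to 8.69 with a slope of -0.23 ± 0.03 (SE; limma adjusted p = 0.00148). Counting the members, 2 of 7 tested carbonic anhydrase genes were called lower with Hoxb13, Car1 and Car8, beside 1.69% of all genes. Without the members it was 1 of 4. Of 13 tested anion channel genes, 2 were called higher, Best2 and Ano1, beside 2.27% of all genes. Without the members it was 1 of 11. The members and lists were chosen with earlier results of these data known, so these shares are not a test of the lists.

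The nearest genes of the remaining lists did not pass. In the bicarbonate cotransporter family Slc4a2, a basolateral anion exchanger, had a slope of -0.14 (limma adjusted p = 0.0859), opposite in sign to that of Slc4a7. For Slc12a3, a sodium chloride cotransporter, the slope was 0.06 (limma adjusted p = 0.0903). Slc9a3r2, a scaffold of Slc9a3, had a slope of -0.03 (limma adjusted p = 0.393). The other apical exchangers tested, Slc26a6 and Slc26a2, had slopes of 0.03 and 0.02 (limma adjusted p = 0.645 and 0.711). Atp1b1, a subunit of the sodium pump, had 0.11 (limma adjusted p = 0.108).

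With Hoxb6, 1 of the 51 rose, beside 1.95% of all genes, and 5 fell, beside 2.79% of all genes. The one that rose was Car8, with a slope of 0.31 (limma adjusted p = 0.0302). Ano1 fell by 0.35 per step of Hoxb6 (limma adjusted p = 0.0111), and Atp1b1 by 0.22 (limma adjusted p = 0.0151). Kcnq1, a basolateral potassium channel, fell by 0.22 (limma adjusted p = 0.034). Vipr1 and Chrm3, receptors for the secretory signals VIP and acetylcholine, fell by 0.20 and 0.19 (limma adjusted p = 0.036 and 0.0153).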

How the data were processed

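The authors deposited one scanner file per array from GenePix Pro 6.1.0.4 at 532 nm, per the file headers, with spot intensity on a linear scale, not normalized, the percent of saturated pixels per spot, and flags. They also deposited a value table, on the log2 scale per the labels. RMA is named, without a version, in the submitters' processing notes. Its column medians were 4.36 to 4.45. Its IDs matched the scanner values (r = 0.996 to 0.999) only when moved by 1 row, so it served as an alternative in that form. Its centring is unknown.

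Mean spot intensity was corrected for the median local background (normexp, offset 50) and quantile normalized over the 12 arrays with limma 3.58.1 in R 4.3.3. Of 45220 spots, 42877 were gene spots with 30367 probes. Repeat spots were averaged per probe, and the tests took probes with a share of good spots (flag 100) of 0.5 or more on 6 or more arrays of either diet. A gene was read from its brightest tested probe. This left 11737 named probes and 10451 genes, and 1467 probes without a name were left out. Names came from GRCr8 accessions (18355 of 26038 matched) or else from the array. Promoters came from RefSeq.

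The 4 fits (lmFit and eBayes) were diet, Hoxb13 level with diet, Hoxb6 level with diet, and diet with both levels. Benjamini-Hochberg adjustment ran over all genes, at 0.05. No fit split the arrays by Hox level, though levels are described above for arrays with high or low Hox levels. The fits were tested on simulated data. No pair of arrays was identical. Alternatives changed the background, scaling, filter, probe rule, slide, table, covariates and samples. Named besides the 10 genes were list genes with an unadjusted diet p under 0.05 and the 2 genes of each list with the smallest Hoxb13 p, of which some are not reported here. Genes named for Hoxb6 were chosen after their values were seen. The members and lists were chosen with earlier results of these data known.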

Additional observations from a re-analysis of the deposited data

Results flagged for a closer look

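Slc4a7 on normal protein stood out for one array. Replicate 1 was at 8.13 and the nearest of the other 5 normal-protein arrays at 7.37, a gap of 0.732 of the group's whole range. It was the single such case among 20 groups examined, where about 1 in 20 is flagged by chance. The same array had a high Hoxb13 level, 12.05.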

How the results depend on the processing

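Across the alternatives, the diet comparison called 0 members, and 0 genes except 1 gene, Bik, within slide 2, named after its value was seen. Some diet differences changed sign, among them those of Slc26a3 and Slc9a3, which were -0.37 and -0.30 in the main fit. With Hoxb13 and Hoxb6 in the fit Slc9a3 was at 0.0086 and Slc9a2 at 0.14. Slc9a2 was at 0.0083 and Cftr at -0.32 on slide 1, and Cftr at -0.0231 on slide 2. On slide 3 Slc26a3 was at 0.0398, Slc9a3 at 0.0584, Slc9a2 at 0.41 and Car4 at 0.67. With single arrays left out, Cftr ran from -0.0568 to 0.25, Car4 from -0.25 to 0.15 and Slc9a2 from -0.27 to 0.0009.

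Best2 and Car1 kept the sign of their Hoxb13 slopes under every alternative, and their calls did not always hold. Of the 10 members, 1, Best2, passed with slide as a block or without the 2 arrays farthest from the median Hoxb13 level. The count was 0 in the deposited value table, with Hoxb6 also in the fit, and in normal-protein arrays alone (added after seeing the data). With single arrays left out it ran from 1 to 3. Over all genes 414 were called, against 215, 244, 59, 9 and 3 in those alternatives in that order, and 165 to 536 with single arrays left out. The cause was not tested.

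For Hoxb6, 1 member passed with normexp and 75th percentile scaling, 2 in high-protein arrays alone (added after seeing the data), and 0 to 2 with single arrays left out. Over all genes 496 were called, and 87 with slide as a block, 121 without the diet term and 36 without the 2 farthest arrays. With Hoxb13 also in the fit (added) 3 were called, in high-protein arrays alone 261, and with single arrays left out 176 to 765. The Hoxb6 slope of Slc4a7 was 0.018 with Hoxb13 in the fit, and that of Car2 was -0.0021 in normal-protein arrays alone.

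The diets share replicate numbers 1 to 6. Deviations of same-numbered arrays correlated above 0.1 in 3 of 6 pairs, and 3 of 6 arrays matched their own number best, which is short of every pair, so pairing was not taken as established. With the replicate block, 0 members and 24 genes were called for Hoxb13 (limma adjusted p = 0.182 for Best2 and 0.118 for Car1), 7 genes for Hoxb6 and 0 genes for diet.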
